A study of Mus musculus with 9 samples.

Results

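The genes described here encode the sensors of the unfolded protein response and the protein folding, quality control and degradation machinery of the endoplasmic reticulum (ER). They form a list of 31 genes, chosen by name as known members of this system, and each was read from the probe set with the highest mean among those whose platform symbol is that gene alone. All 31 were found among the 19938 genes that the arrays name in this way, and all 31 were among the 16582 genes that passed the filter on low values and were tested. To pass, a gene had to exceed the 30th percentile of all values of the array on 3 or more of the arrays. A single probe set named 28 of the members, 2 probe sets named Dnajc3 and Pdia4, and 3 named Sec61b.

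RNA was measured on 9 Affymetrix arrays, 3 for each of 3 stages of muscle cell differentiation in culture. The cells were primary myoblasts, the proliferating precursors of muscle fibres, taken from the skeletal muscle of mice of the Balb/c strain, wild type in genotype. The groups were cycling myoblasts (0 hr), myotubes after 2 days in differentiating medium and myotubes after 5 days in it; myotubes are the multinucleate cells formed when myoblasts fuse. The labels' sample titles name the differentiating medium, while their growth protocol lists 1 medium, HAM's F10 with serum and bFGF, for every sample. Nothing in the labels says that the 3 arrays of a stage came from separate cultures or animals, so the p-values below describe only how these arrays spread, and that spread may be technical.

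The ER is where secreted and membrane proteins enter the secretory pathway, fold, receive disulfide bonds and sugars, and are checked before export. When unfolded proteins accumulate, the membrane sensors IRE1, PERK and ATF6 slow translation and raise the transcription of chaperones, oxidoreductases and the degradation machinery, largely through XBP1, ATF4 and cleaved ATF6. In muscle the same membrane system also builds the sarcoplasmic reticulum, and ER stress signalling has been described during myoblast differentiation.

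Chaperone genes of this response are known for a promoter element, the ERSE, to which ATF6 and XBP1 bind together with NF-Y. The element was searched for as CCAAT, any 9 bases, then CCACG, on both strands of 300-base windows that run from 250 bases before to 50 bases after each transcription start (RefSeq, GRCm38.p6). Of the 26 members with a window in that table, 9 held a match, against 0.137% of the 27044 genes with a window and 1 of 74 other ER pathway genes (Ero1b). The 9 were Hspa5, Hsp90b1, Dnajc3, Syvn1, Derl3, Pdia6, Calr, Canx and Creld2. The matches are printed because members that hold the same letters followed different courses below. Each is given in the sense of its gene with 12 bases on either side, with the matched CCAAT and CCACG letters, or their reverse complements ATTGG and CGTGG, in capitals.
Hspa5, chr2:34772013-34772055, + strand: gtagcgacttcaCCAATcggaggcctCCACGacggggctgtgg
Hsp90b1, first match, chr10:86705626-86705668, - strand: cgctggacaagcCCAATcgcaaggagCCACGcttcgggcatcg
Hsp90b1, other match, chr10:86705521-86705563, - strand: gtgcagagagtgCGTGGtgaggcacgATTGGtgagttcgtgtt
Dnajc3, chr14:118937815-118937857, + strand: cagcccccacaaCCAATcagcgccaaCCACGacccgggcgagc
Syvn1, chr19:6046520-6046562, + strand: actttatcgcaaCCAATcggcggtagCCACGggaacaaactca
Derl3, chr10:75893230-75893272, + strand: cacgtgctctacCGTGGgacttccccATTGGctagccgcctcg
Pdia6, chr12:17266479-17266521, + strand: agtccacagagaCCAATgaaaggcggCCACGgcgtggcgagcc
Calr, chr8:84847063-84847105, - strand: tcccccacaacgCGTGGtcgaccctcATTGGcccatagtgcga
Canx, chr11:50325788-50325830, - strand: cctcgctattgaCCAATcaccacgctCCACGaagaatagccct
Creld2, chr15:88819508-88819550, + strand: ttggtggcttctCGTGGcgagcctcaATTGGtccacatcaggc

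A related form, ERSE-II, was searched for as ATTGG, any 1 base, then CCACG, and an ATF4 element as TGATGCAA, both on both strands. Herpud1 was the only member with either, and its window held both. ERSE-II was found in 0.0444% of all genes with a window and the ATF4 element in 1.03%. The 130 bases upstream of its start are printed because Herpud1 showed the largest rise of any member at day 5 on both scales, with both matches in capitals (the ATF4 element as its reverse complement TTGCATCA).
Herpud1, chr8:94386299-94386428, + strand: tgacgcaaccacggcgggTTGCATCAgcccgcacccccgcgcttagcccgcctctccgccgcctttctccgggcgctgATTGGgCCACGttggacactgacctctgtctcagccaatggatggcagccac

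The UPRE core TGACGTGG was in the window of 0 of 26 members and of 0.714% of all genes. The E-box CAGCTG, a myogenic factor sequence, was in 3 member windows (Syvn1, Pdia3 and Calr), against 18.3% of all genes. The shorter pieces of the ERSE were common by themselves: CCACG was in 21 of 26 member windows and 35.5% of all genes, and CCAAT in 22 of 26 and 41%, both including the copies inside the ERSE matches. A match is a description of these letters in these windows and no evidence of binding. The table holds no window for Atf6, Derl1, Manf, Hyou1 and Sec61a1.

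**Figure D1:**
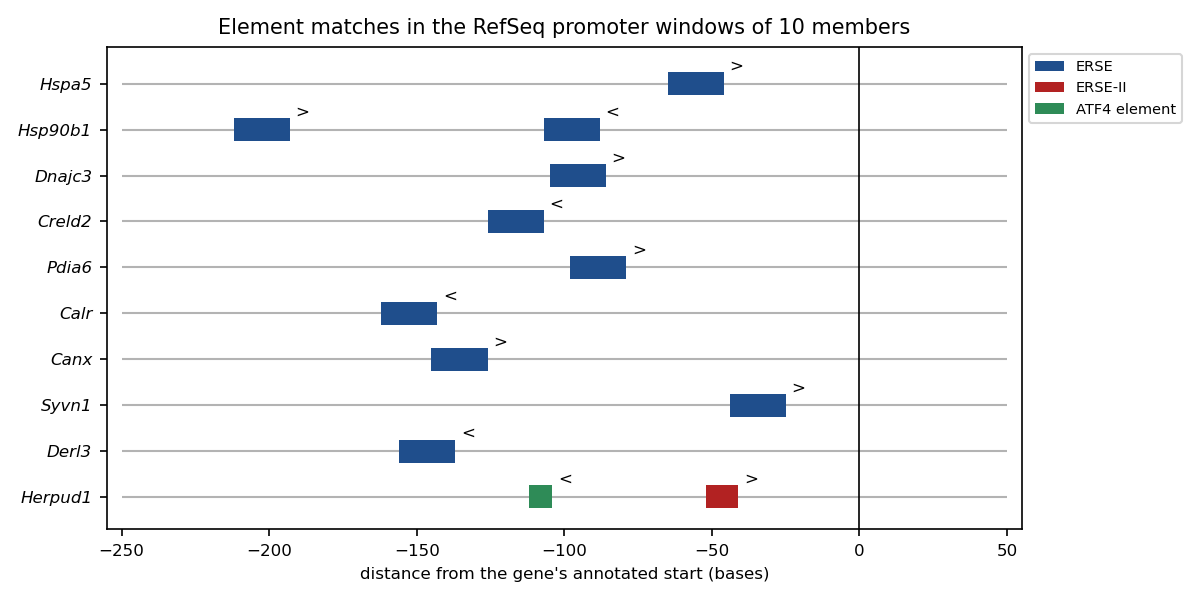
The horizontal axis is the position in bases from the transcription start in the sense of the gene, and each line is the 300-base window of a member that holds an ERSE or ERSE-II match; blue boxes mark ERSE, the red box ERSE-II and the green box the ATF4 element, and the arrowheads > and < give the strand of the letters relative to the gene. All 11 matches of the ERSE and ERSE-II kinds, in 10 genes, lie upstream of the start.

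Values are log2 expression levels, and they carry a limit that bears on every comparison. The design text says that RMA, which sets the arrays of a run to a common distribution, was run for each replicate set. The sorted values of arrays of 1 stage differed by at most 0.0251, and those of arrays of different stages by at least 0.188, so the stages had been normalized apart. Normalization set and stage cannot be told apart. Each comparison was therefore made on the deposited values and again after quantile normalization over all 9 arrays, called the common scale. Array values given below, and statements on whether stages overlapped, are on the deposited scale unless the common scale is named. A gene counts as having risen or fallen only where limma gave an adjusted p below 0.05 with the same sign on both scales, and as a 2-fold change where the log2 difference also reached 1 on both. A member that did not pass under this rule may still have a low p on each scale with opposite signs. Replicate values were often identical: 40 of the 93 member SDs (31 members at 3 stages) were 0 within a tolerance of 1e-06, so many standard errors are close to 0 and the p-values say little; sizes on both scales are the safer guide. Pearson's r across probe sets was 0.990 or higher within a stage and 0.902 to 0.967 between stages, and no array stood apart.

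The 7 myotube markers, among them Ckm, Myog and Tnnc2, all rose at least 2-fold by day 2. The summed linear level of the list went from 3033 to 3579 over the cycling myoblast arrays to 20650 to 20750 at day 2. At day 5 it was 14750 to 14960. On the common scale the sums were 2503 to 2938, 18980 to 19300 and 17390 to 17510 in stage order. From day 2 to day 5, 57.1% of the 7 fell and 14.3% rose, beside 40.6% and 16.2% of all genes. Of the 7 myoblast markers, 3 fell at least 2-fold by day 2 and 5 by day 5 (Cdh15, Myf5, Myod1, Pax7 and Vcam1), while Des rose. The fibroblast list, of which 8 of 9 genes were measured, summed to 594.6 to 608.1 in cycling myoblasts and 173 at day 2, deposited. On the common scale it summed to 495.7 to 499.3 and 162.7 to 163.2. The only 2-fold fall was that of Col3a1, with a log2 difference of -2.87. Dcn, Lum and Dpt stayed at or under the filter on all arrays, while Pdgfra, Thy1, Col1a1, Col3a1 and Tcf21 passed it. The endothelial list (6 genes) summed to 50.95 to 63.45 over all arrays on the deposited scale. The macrophage list (6 genes) summed to 60.93 to 84.13 and the adipocyte list (4 of 5 measured) to 57.02 to 83.15 on that scale. Emcn, Adgre1, Adipoq and Fabp4 were under the filter on all arrays. The macrophage gene Itgam was 2-fold higher at day 2. It was at or under the filter on all cycling myoblast arrays, so the size of its rise is uncertain. The part of these cell types in the results was not tested. In such bulk RNA, fewer cells of a type and less RNA per cell cannot be told apart.

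Over the whole list, more members fell than rose as myoblasts became myotubes, most of them by less than 2-fold on the stricter scale, while a few transcription factor and degradation genes rose. At day 2, 8 members rose and 19 fell against cycling myoblasts, or 25.8% and 61.3% of the list, where 42.8% and 37.4% of all genes tested did so. The median log2 difference of the members was -0.53 deposited and -0.37 on the common scale, against -0.01 and 0.09 over all genes tested. At the 2-fold level, 2 members rose (Herpud1 and Edem3) and 3 fell (Pdia4, Sec61b and Sec61a1); the background was 6.04% higher and 8.41% lower, so these shares, 6.45% and 9.68%, were near those of all genes.

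At day 5 against cycling myoblasts, 4 members rose (Xbp1, Herpud1, Derl3 and Ddit3) and 17 fell, or 12.9% and 54.8%, with a background of 29.7% and 38.1%. The other 10 did not pass with the same sign on both scales; 6 of them had a limma adjusted p below 0.05 on each scale but in opposite directions (Dnajb9, Atf6, Sel1l, Syvn1, Derl2 and Edem3), so for these the scales differ and no direction is given. The members' median was -1.05 deposited and -0.25 on the common scale, against -0.37 and 0.17 over all genes, so the size of the median fall depended on the scale. Herpud1 rose at least 2-fold and Pdia3, Pdia4, Sec61b and Sec61a1 fell at least 2-fold, which is 1 and 4 of 31 beside a background of 4.44% and 12.3%. On the deposited scale alone 17 members were 2-fold lower.

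Between day 2 and day 5, 4 members rose (Herpud1, Derl3, Ddit3 and Sdf2l1) and 8 fell (Atf6, Ern1, Edem3, Pdia3, P4hb, Canx, Sec61b and Sec61a1), or 12.9% and 25.8%, beside a background of 16.2% and 40.6%. No member passed the 2-fold rule in either direction, where 0.766% of all genes rose and 3.67% fell; 4 members were 2-fold higher on the common scale alone and 5 were 2-fold lower on the deposited scale alone. The members' median was -0.58 deposited and 0.08 on the common scale, against -0.40 and 0.05 over all genes, and 17 of the 31 had opposite signs on the scales. Of these 17, 10 had a limma adjusted p below 0.05 on each scale in opposite directions. More members had opposite signs in this step than at day 5 (7) or day 2 (3) against cycling myoblasts, while the median moved more between the scales at day 5 against cycling myoblasts.

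**Figure D2:**
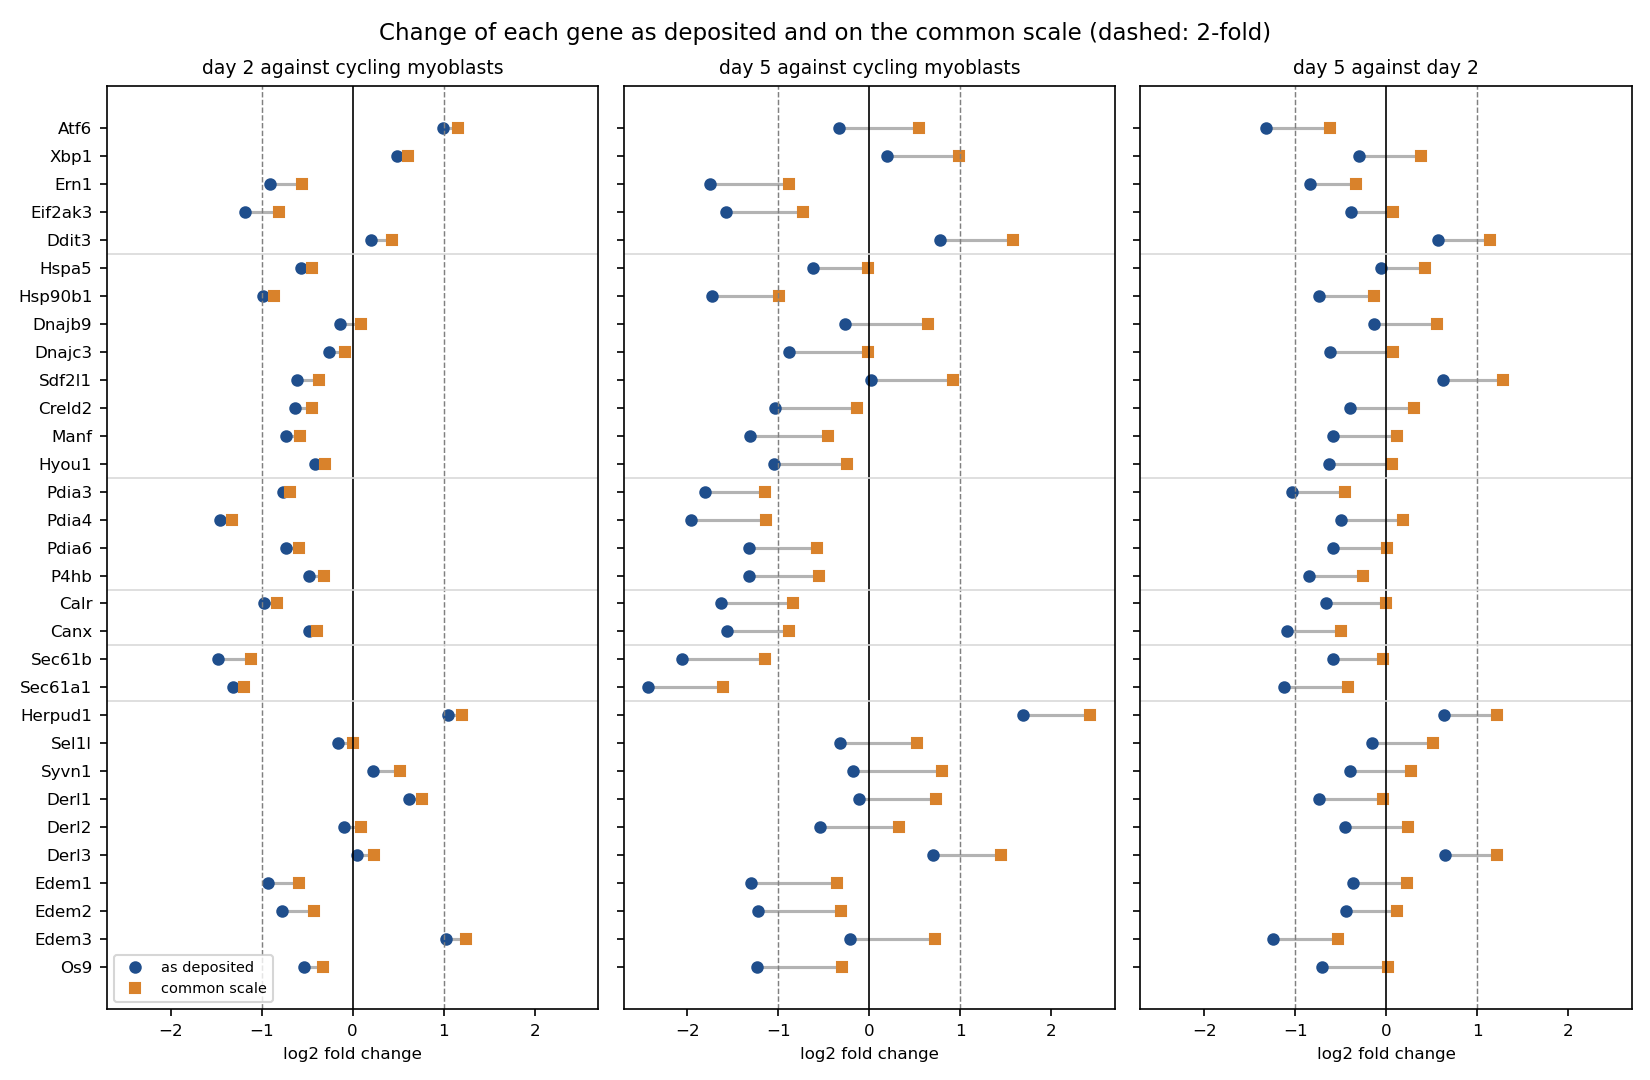
Log2 differences of all 31 members in the 3 comparisons, grouped by role, with circles for the deposited values, squares for the common scale and dashed lines at a log2 difference of 1 in either direction. The day 2 symbols of a gene lie close together, whereas at day 5 the common scale sits to the right of (higher than) the deposited values for every member, so the falls at day 5 are smaller on it.

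The sensors and transcription factors split by gene. Among the 5, Atf6, Xbp1 and Ddit3 rose by day 2 while Ern1 and Eif2ak3 fell. The shares, 60% and 40%, stand beside 42.8% and 37.4% of all genes tested. Atf6 encodes a membrane-bound transcription factor that is cut free under stress. It read 7.73, 7.83 and 7.81 in cycling myoblasts, 8.77, 8.80 and 8.77 at day 2 and 7.43, 7.46 and 7.47 at day 5. The day 2 arrays were the highest and the day 5 arrays the lowest, with no overlap between stages. Atf6 rose by day 2 by 0.99 deposited and 1.16 on the common scale (limma adjusted p = 3e-08 and 1.67e-10) and fell from day 2 to day 5 with differences of -1.32 and -0.61 (limma adjusted p = 5.16e-09 and 1.06e-08). Against cycling myoblasts its day 5 level was lower as deposited, at -0.34, and higher on the common scale, at 0.54, so no direction is given for that comparison.

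Xbp1 encodes the transcription factor made active when IRE1 splices its mRNA; the gene-level probe set gives the total transcript and not the spliced form. Its values were 8.28, 8.45 and 8.48 in cycling myoblasts, 8.89 on each day 2 array, and 8.60, 8.58 and 8.58 at day 5. Every myotube array lay above every myoblast array. The log2 rise was 0.49 and 0.61 at day 2 and 0.19 and 0.99 at day 5, deposited and common, with limma adjusted p = 0.00867 or below. From day 2 to day 5 the scales gave -0.30 and 0.38, with no common direction.

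Ddit3 encodes CHOP, a transcription factor of the PERK branch associated with prolonged stress and cell death. It read 4.88 on each cycling myoblast array, 5.15, 5.05 and 5.05 at day 2 and 5.65 on each day 5 array. The stages did not overlap and were ordered by time. Ddit3 rose by 0.21 and 0.44 at day 2, by 0.77 and 1.58 at day 5 against cycling myoblasts and by 0.57 and 1.14 from day 2 to day 5, where limma's adjusted p was 5.18e-07 and 1.91e-09. On the deposited scale the day 5 difference was a fold of 1.71, under the 2-fold line.

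Ern1 encodes IRE1 alpha, the kinase and RNase that splices Xbp1. Its deposited value was 6.52 on each cycling myoblast array, 5.61 on each day 2 array and 4.77 on each day 5 array. The stages were ordered by time in the falling direction without overlap. The log2 differences were -0.91 and -0.55 at day 2 and -1.75 and -0.88 at day 5. From day 2 to day 5 they were -0.84 and -0.33. All its deposited SDs were 0, so its spread on the common scale came from the normalization alone. No p is therefore given for Ern1.

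Eif2ak3 encodes PERK, the kinase that slows translation by phosphorylating eIF2 alpha. Like Ern1 it had 1 value per stage, 6.29, 5.11 and 4.72. It fell by day 2, with differences of -1.18 deposited and -0.80 on the common scale, and by day 5, with -1.57 and -0.73. Its later step, -0.39 and 0.07, had opposite signs. The mRNAs of both sensor kinases were thus lower in myotubes while those of the 3 transcription factors were higher at day 2.

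**Figure D3:**
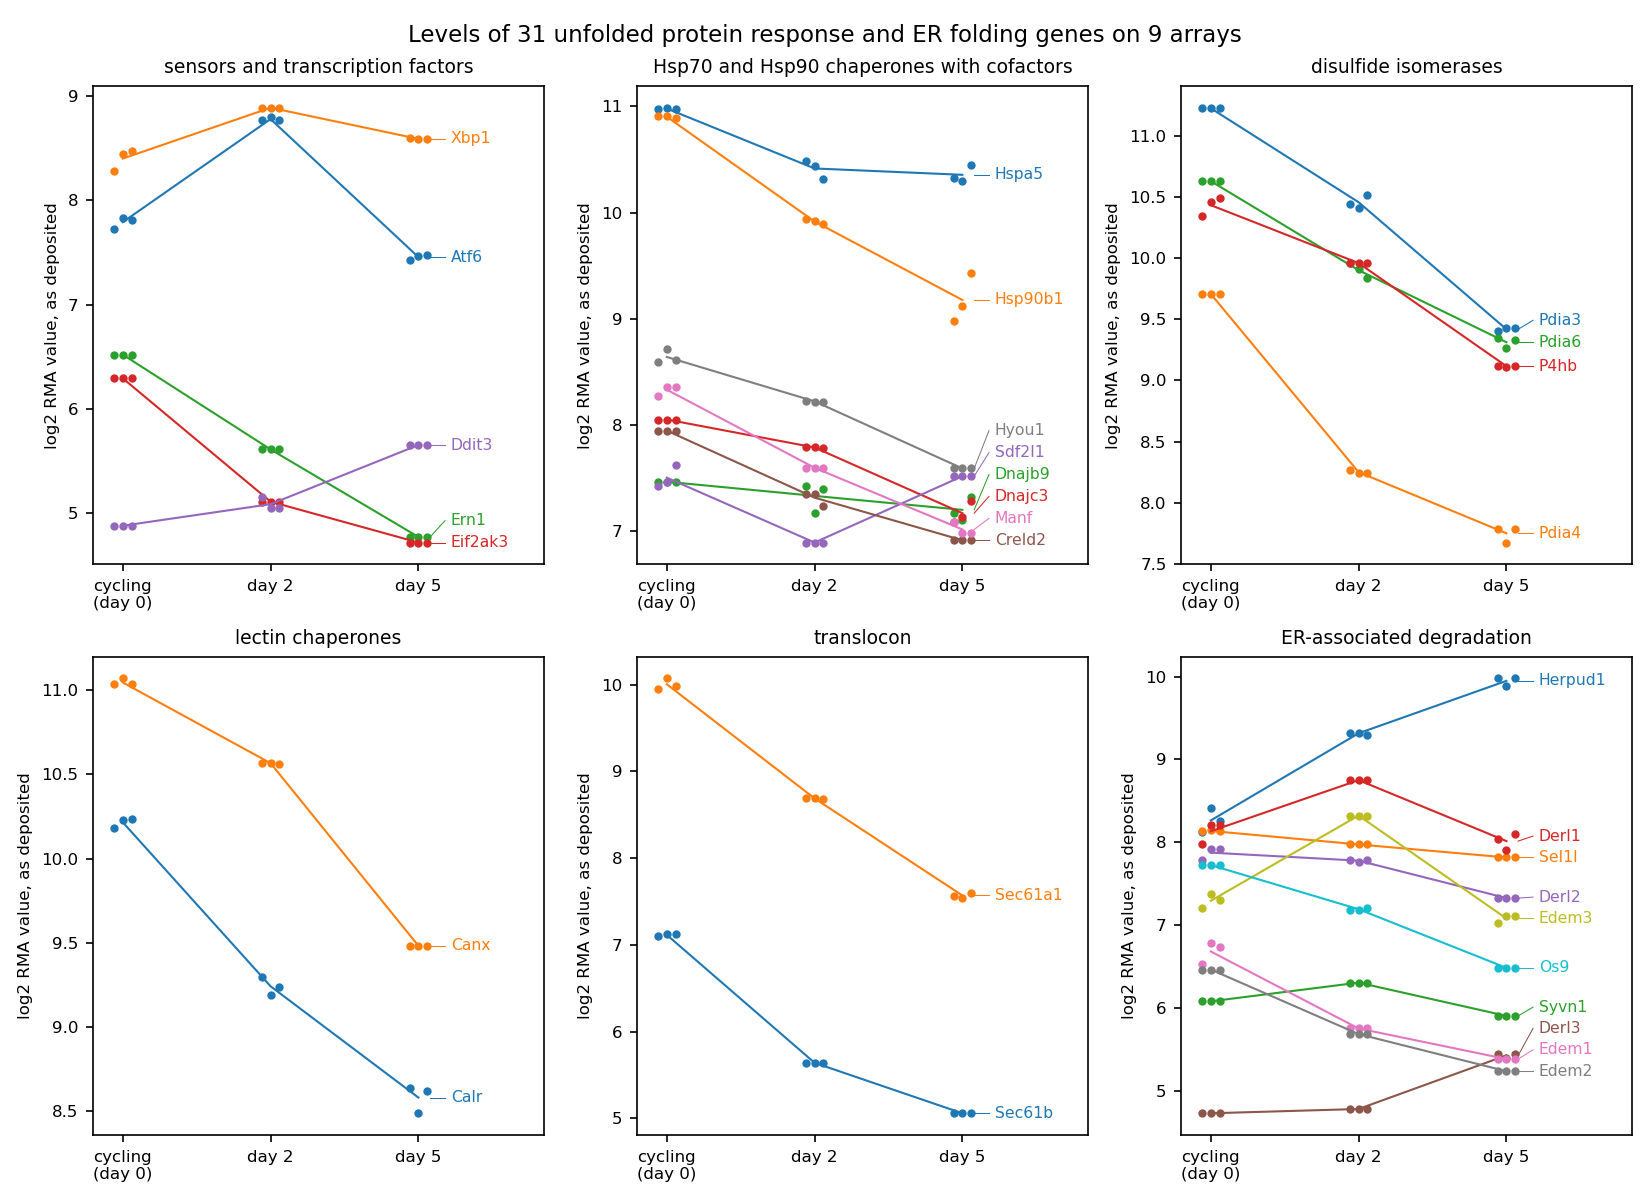
Deposited log2 levels of the 31 members on each array, in panels by role, with points for the 9 arrays and lines through the stage means. The translocon, lectin and isomerase panels step down at both stages, while the sensor and ER-associated degradation panels hold lines in both directions; levels of different genes come from different probe sets and are not comparable.

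The Hsp70 and Hsp90 chaperones with their cofactors were mostly lower in myotubes at day 2. Of the 8, 6 fell at day 2 and none rose, beside 37.4% and 42.8% of all genes, with a median of -0.59 deposited and -0.41 on the common scale. At day 5, 4 fell and none rose, with medians of -0.96 and -0.08; the share that fell, 50%, was closer to the 38.1% of all genes. None of these changes reached 2-fold on both scales.

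Hspa5 encodes BiP, the main Hsp70 of the ER lumen and the negative regulator of the 3 sensors. It read 10.98, 10.99 and 10.98 in cycling myoblasts, 10.49, 10.44 and 10.32 at day 2 and 10.32, 10.29 and 10.45 at day 5. All myotube arrays were below all myoblast arrays on this scale, and the day 2 and day 5 arrays overlapped. Hspa5 fell at day 2, with differences of -0.56 and -0.44 (limma adjusted p = 4.67e-05 and 0.000109). At day 5 the deposited difference was -0.62, but the common scale gave -0.02 (limma adjusted p = 0.776).

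Hsp90b1 encodes GRP94, the ER form of Hsp90, which folds integrins among other clients. Its values were 10.91, 10.91 and 10.89 in cycling myoblasts, 9.94, 9.92 and 9.89 at day 2, and 8.98, 9.12 and 9.44 at day 5. On the deposited scale the stages did not overlap, and the day 5 arrays were the most spread of any member (SD 0.234, n = 3). On the common scale the day 5 arrays read 9.46, 9.57 and 9.90, against 9.75 to 9.80 at day 2, so these stages overlapped. Hsp90b1 fell at day 2, by -0.99 and -0.86, and at day 5, by -1.73 and -0.998, with limma adjusted p = 3.13e-06 and 3.47e-05 for the latter. The common-scale fold at day 5, 1.997 lower, was just outside the 2-fold rule.

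Hyou1, a nucleotide exchange factor for BiP, fell at day 2 (-0.42 and -0.30) and day 5 (-1.05 and -0.25). Manf and Creld2, small stress-induced ER proteins, fell in both comparisons too: Manf by -0.74 and -0.58 at day 2 and -1.32 and -0.46 at day 5, and Creld2 by -0.63 and -0.45 and then -1.03 and -0.14. The BiP cochaperones of the J-domain family, Dnajc3 and Dnajb9, did not pass on both scales in any comparison. At day 2 Dnajc3 showed -0.26 and -0.09 and Dnajb9 -0.13 and 0.10, and at day 5 -0.88 and -0.01 for Dnajc3 and -0.26 and 0.65 for Dnajb9.

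Sdf2l1, a partner of BiP and its J-domain proteins, followed a course that no other of these 8 did under this rule. It read 7.42, 7.47 and 7.62 in cycling myoblasts, 6.89 on each day 2 array and 7.52 on each day 5 array. The day 2 arrays lay below all others, and the day 5 arrays fell inside the myoblast range. Sdf2l1 fell at day 2 (-0.61 and -0.37) and rose from day 2 to day 5 (0.62 and 1.29, limma adjusted p = 1.19e-05 and 3.64e-08). A fall at day 2 followed by a rise was seen for 1 of 31 members and 5.98% of all genes tested. At day 5 against cycling myoblasts the difference was 0.01 deposited and 0.92 on the common scale.

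All 4 protein disulfide isomerases, which form and rearrange disulfide bonds in newly made proteins, fell at both stages. Their median was -0.75 and -0.64 at day 2 and -1.56 and -0.86 at day 5. Of all genes tested, 37.4% fell at day 2 and 38.1% at day 5. Pdia4 read 9.71 on each cycling myoblast array, 8.27, 8.24 and 8.24 at day 2 and 7.79, 7.67 and 7.79 at day 5. The stages did not overlap on the deposited scale. From day 2 to day 5 the scales gave -0.50 and 0.19, with no common direction. Pdia4 fell 2.75-fold deposited and 2.50-fold on the common scale by day 2, with log2 differences of -1.46 and -1.32 (limma adjusted p = 5.76e-09 and 2.04e-09), and was 3.89-fold and 2.20-fold lower at day 5. Its other probe set read 4.07, 3.37 and 3.17, under the array medians at every stage and close to the filter levels in myotubes (3.32 to 3.35 at day 2 and 3.10 to 3.13 at day 5), so the size of its differences (-0.70 and -0.74 at day 2) is not informative. Averaging in that dim probe set brought the day 5 fall of Pdia4 below 2-fold on 1 of the scales.

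Pdia3 encodes ERp57, the isomerase that works with calnexin and calreticulin on glycoproteins. It read 11.23 on each cycling myoblast array, 10.44, 10.41 and 10.52 at day 2 and 9.40, 9.43 and 9.43 at day 5. Each stage was below the one before it, with no overlap. Pdia3 fell at day 2 (-0.77 and -0.69), at day 5 (-1.81 and -1.15) and between them (-1.04 and -0.45), with limma adjusted p = 1.34e-08 and 1.82e-06 for the last. P4hb, the classical disulfide isomerase and a subunit of collagen prolyl hydroxylase, showed the same order with -0.47 and -0.31, then -1.32 and -0.56 against cycling myoblasts. Pdia6 fell at day 2 (-0.73 and -0.59) and day 5 (-1.32 and -0.58), and its later step was -0.59 deposited and 0.01 on the common scale.

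The lectin chaperones calnexin (Canx) and calreticulin (Calr), which hold glycoproteins until they fold, both fell at both stages. Falls were seen for 37.4% of all genes at day 2 and 38.1% at day 5. Canx read 11.03, 11.07 and 11.03 in cycling myoblasts, 10.57, 10.57 and 10.56 at day 2 and 9.48 on each day 5 array. Calr read 10.18, 10.23 and 10.24, then 9.30, 9.19 and 9.24, then 8.64, 8.49 and 8.62. On the deposited scale neither gene's stages overlapped. On the common scale the day 2 and day 5 arrays of Calr overlapped (9.00 to 9.11 and 8.97 to 9.12). The differences at day 2 were -0.48 and -0.39 for Canx and -0.97 and -0.84 for Calr, and at day 5 -1.56 and -0.89 for Canx and -1.64 and -0.84 for Calr. Only Canx of the pair also fell from day 2 to day 5, with -1.08 and -0.50 (limma adjusted p = 2.45e-11 and 2.57e-07), where Calr gave -0.66 and 0.00 (limma adjusted p = 7.38e-06 and 0.99); the difference between the genes was not tested.

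Both translocon genes fell at least 2-fold at both myotube stages, beside 8.41% of all genes at day 2 and 12.3% at day 5. Sec61a1 and Sec61b encode the pore-forming alpha and the beta subunit of the Sec61 channel, through which new chains enter the ER. Sec61a1 read 9.95, 10.07 and 9.99 in cycling myoblasts, 8.69, 8.69 and 8.68 at day 2 and 7.57, 7.54 and 7.60 at day 5. Each stage lay below the one before it without overlap. Sec61a1 was 2.49-fold and 2.29-fold lower at day 2 and 5.41-fold and 3.06-fold lower at day 5, deposited and common, the largest fall of any member at day 5 on both scales. The log2 differences at day 5 were -2.43 and -1.61 (limma adjusted p = 1.97e-10 and 8e-11).

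Sec61b read 7.11, 7.12 and 7.12 in cycling myoblasts, 5.64 on each day 2 array and 5.06 on each day 5 array. The stages were again ordered by time without overlap. Its differences were -1.48 and -1.11 at day 2 and -2.06 and -1.15 at day 5, and all 3 of its probe sets were lower, with -1.48, -1.33 and -1.30 deposited at day 2. On the common scale those 3 probe sets gave -1.11, -1.02 and -0.93. From day 2 to day 5 the probe set used gave -0.58 deposited and only -0.04 on the common scale. Its other probe sets gave -0.32 and -0.25 on the common scale in that step. Whether related copies of the gene contribute to a probe set was not tested.

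ER-associated degradation, which moves misfolded proteins back to the cytosol for destruction, had members that moved in both directions. Of its 10 genes, 5, or 50%, rose at day 2 (Herpud1, Syvn1, Derl1, Derl3 and Edem3) and 3 fell (Edem1, Edem2 and Os9), a share of rises near the 42.8% of all genes tested. The day 2 falls were 30% of the 10, beside 37.4% of all genes. At day 5, 2 rose (Herpud1 and Derl3) and the same 3 fell, or 20% and 30%, beside 29.7% and 38.1% of all genes. Sel1l and Derl2 did not pass at day 2.

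Herpud1 encodes a membrane protein that organises the HRD1 degradation complex, and its promoter letters are printed above. It read 8.12, 8.42 and 8.25 in cycling myoblasts, 9.32, 9.32 and 9.30 at day 2 and 9.98, 9.89 and 9.98 at day 5. Every stage lay above the one before it, and the myoblast arrays were the most spread (SD 0.150, n = 3). On the common scale the means were 7.93, 9.13 and 10.35. Herpud1 rose 2.07-fold and 2.30-fold by day 2 (limma adjusted p = 6.35e-06 and 5.65e-07) and was 3.21-fold and 5.35-fold higher at day 5 (limma adjusted p = 3.43e-07 and 5.2e-09). It rose from day 2 to day 5 as well, by 0.63 and 1.22 on the log2 scale.

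Edem3, a mannosidase-like protein that marks glycoproteins for degradation, rose and then fell. It read 7.21, 7.37 and 7.30 in cycling myoblasts, 8.32 on each day 2 array and 7.03, 7.11 and 7.11 at day 5. The day 2 arrays were above all others. Edem3 rose by 1.03 and 1.25 at day 2 (limma adjusted p = 3.21e-07 and 5.74e-09) and fell from day 2 to day 5, with -1.24 and -0.53 (limma adjusted p = 1.02e-07 and 1.68e-06); at day 5 against cycling myoblasts the scales gave -0.21 and 0.72. Both day 2 rises at the 2-fold level rest on the first cycling myoblast array: without it the deposited difference was 0.98 for Herpud1 and 0.99 for Edem3, and no member was 2-fold higher, while without the second one Atf6, at 1.01, joined them.

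Edem1 and Edem2, of the same family, fell instead. The differences were -0.93 and -0.58 for Edem1 and -0.78 and -0.43 for Edem2 at day 2, and -1.30 and -0.36 and then -1.23 and -0.31 at day 5. The directions within the Edem family at day 2 were the same on both scales. Os9, a lectin that hands trimmed glycoproteins to the ligase complex, fell with them, by -0.53 and -0.32 at day 2 and -1.24 and -0.30 at day 5.

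Derl3 belongs to the derlins, channel-like proteins of retrotranslocation. It read 4.73 on each cycling myoblast array, 4.78 on each day 2 array and 5.44, 5.40 and 5.44 at day 5. The day 5 arrays were above all others, and the first step was small. Derl3 rose by 0.05 and 0.23 at day 2 and by 0.70 and 1.45 at day 5 (limma adjusted p = 8.03e-10 and 1.49e-11 for day 5), and by 0.65 and 1.22 between the myotube stages.

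Derl1 read 7.98, 8.21 and 8.21 in cycling myoblasts, 8.75 on each day 2 array and 8.04, 7.90 and 8.11 at day 5. The day 2 arrays were highest, and the day 5 arrays overlapped those of myoblasts. It rose at day 2 (0.62 and 0.77), while its day 5 difference was -0.12 deposited and 0.73 on the common scale. Derl2 gave -0.10 and 0.09 at day 2 and -0.55 and 0.33 at day 5, with opposite signs in both, and its day 2 arrays overlapped those of myoblasts.

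Syvn1 encodes HRD1, the ubiquitin ligase of the complex, and Sel1l its adaptor. Syvn1 had 1 value per stage, 6.08, 6.31 and 5.91, and rose at day 2 by 0.23 and 0.52. Sel1l gave -0.16 and 0.00 at day 2. At day 5 both had opposite signs on the scales, -0.18 and 0.79 for Syvn1 and -0.32 and 0.52 for Sel1l. Among Herpud1, Syvn1 and Sel1l, Herpud1 rose at every step, Syvn1 rose at day 2 only under this rule, and Sel1l did not pass.

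**Figure D4:**
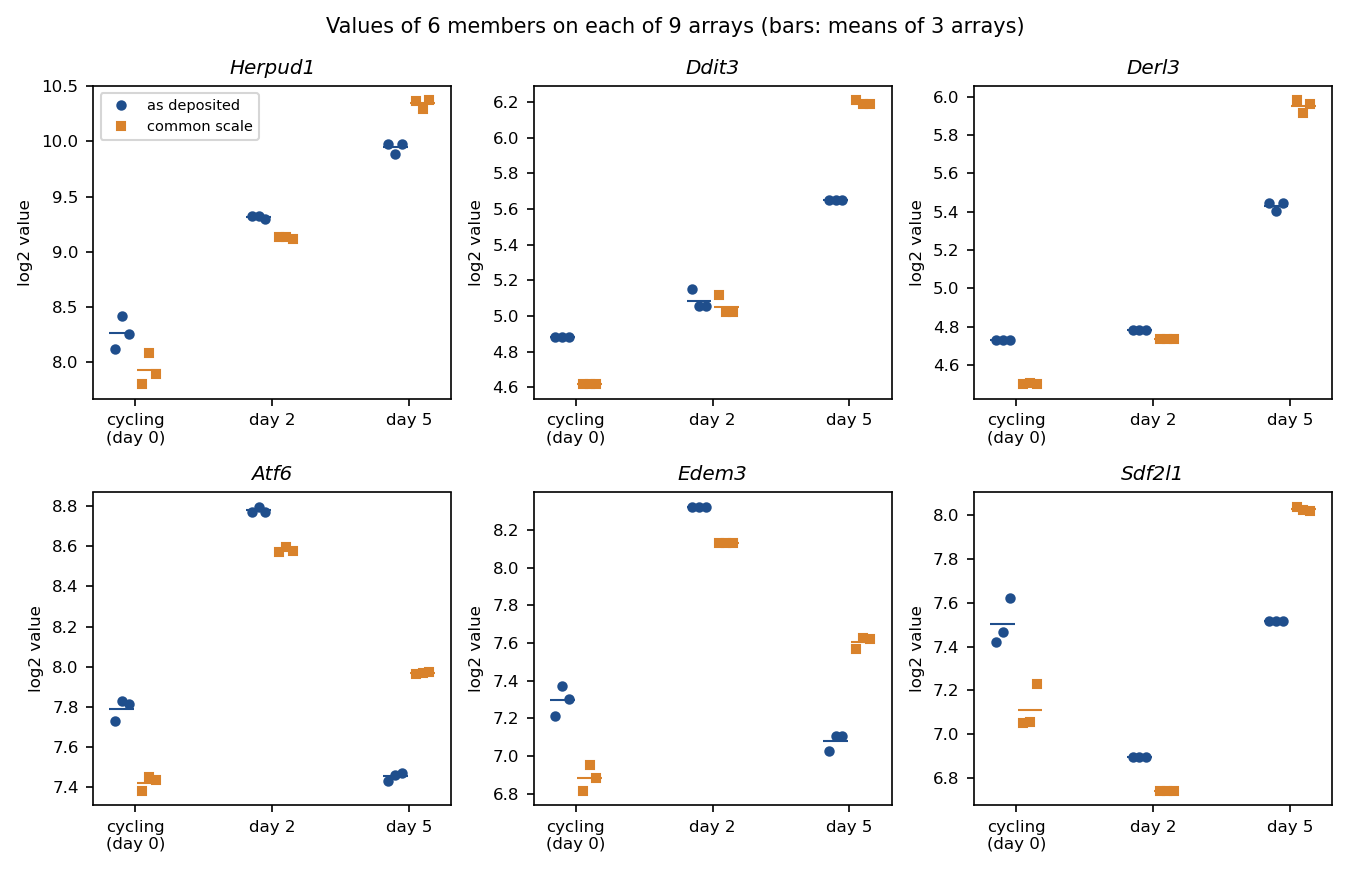
Values of Herpud1, Ddit3, Derl3, Atf6, Edem3 and Sdf2l1 on each of the 9 arrays, with stage on the horizontal axis, the log2 level on the vertical axis (not starting at 0), circles for the deposited values, squares for the common scale and bars for the means of 3 arrays. Herpud1, Ddit3 and Derl3 are highest at day 5 on both scales, Atf6 and Edem3 are highest at day 2, and Sdf2l1 is lowest at day 2.

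Read as courses over both steps, 6 members fell at both steps (Ern1, Pdia3, P4hb, Canx, Sec61b and Sec61a1), as did 17.7% of all genes tested. The second fall of Sec61b was only -0.04 on the common scale. A further 12 fell by day 2 and then did not pass, beside 13.7% of all genes. The 3 that rose at both steps were Herpud1, Derl3 and Ddit3 (7.02% of all genes), and the 2 that rose and then fell were Atf6 and Edem3 (16.3%). Xbp1, Syvn1 and Derl1 rose by day 2 and then did not pass (19.5%), and Dnajb9, Dnajc3, Sel1l and Derl2 passed at neither step (10.1%). The second step shares its day 2 arrays with the first, so a high or low day 2 value enters both. No member's lower level was under the median of its arrays in any comparison.

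The 9 members with an ERSE match did not move as a block. At day 2, 6 of them fell (Hspa5, Hsp90b1, Pdia6, Calr, Canx and Creld2), Syvn1 and Derl3 rose and Dnajc3 did not pass. Their median was -0.56 and -0.44, beside -0.53 and -0.32 for the 17 members with a window and no match, of which 10 fell and 4 rose. Over all genes tested, 37.4% fell and 42.8% rose at day 2. At day 5, 5 of the 9 fell, Derl3 rose and 3 did not pass, with medians of -1.03 and -0.14, beside -1.23 and -0.30 for the 17. Of the 17, 9 fell and 3 rose at day 5, where 38.1% and 29.7% of all genes tested did so. The medians of members with and without the element were thus close at both stages, and no difference between them was tested.

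The other genes of the pathway also held changes in both directions. They were 95 further ER genes, of which 89 had a probe set and 88 were tested. At day 2, 29 rose and 49 fell, 3 and 13 of them at least 2-fold, with a median of -0.38 deposited and -0.19 on the common scale. These are 33% higher and 55.7% lower, beside 42.8% and 37.4% of all genes. The 2-fold shares were 3.41% and 14.8%, beside 6.04% and 8.41% of all genes. At day 5, 13 rose and 49 fell, 3 and 17 at least 2-fold, with medians of -1.11 and -0.29; 14.8% were higher and 55.7% lower, beside 29.7% and 38.1% of all genes. The 2-fold shares at day 5 were 3.41% and 19.3%, beside 4.44% and 12.3% of all genes. From day 2 to day 5, 6 rose and 37 fell, 2 and 2 at least 2-fold. The share that fell, 42%, was near the 40.6% of all genes, while 6.82% rose, beside 16.2%. The 2-fold shares in this step were 2.27% in each direction, beside 0.766% higher and 3.67% lower over all genes.

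Other oxidoreductases held the most 2-fold falls for their number: 5 of 10 at day 2 and 5 of 10 at day 5 (8.41% and 12.3% of all genes), none rising at either, with medians of -1.25 and -1.02 at day 2. Prdx4, an ER peroxiredoxin that uses peroxide to make disulfides, went from 8.10 ± 0.0437 (SD, n = 3) to 5.31 and 3.95, where all 3 arrays of each myotube stage were identical. It fell by -2.79 and -2.49 at day 2, and at day 5 it lay under the array median. Pdia5, another isomerase, fell from 6.19 to 3.99 at day 2, by -2.20 and -1.88, also to a level under the array median.

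Of 14 other ER chaperones, 12 (85.7%) fell at each myotube stage, beside 37.4% of all genes at day 2 and 38.1% at day 5. At least 2-fold were 2 of these falls at day 2 and 4 at day 5, or 14.3% and 28.6%, beside 8.41% and 12.3% of all genes. Ganab, the glucosidase II subunit that trims glycans for calnexin binding, fell at day 5 by -2.91 and -2.07. Of 8 oligosaccharyltransferase genes, which attach N-glycans, 6 (75%) fell at each stage, and the subunit gene Tusc3 fell at day 5 by -2.83 and -1.98. Of 19 other translocon and targeting genes, 7 rose and 9 fell at day 2, or 36.8% and 47.4%, beside 42.8% and 37.4% of all genes. At day 5, 4 rose and 11 fell, or 21.1% and 57.9%, beside 29.7% and 38.1% of all genes. Among them Sec61a2, the paralogue of Sec61a1, rose at day 2 from 7.95 to 9.15 (1.20 and 1.36), the opposite direction to Sec61a1. At day 5 Sec61a2 read 7.92 on the deposited scale, and no direction against cycling myoblasts is given. Sec62, a translocon partner, fell from 8.67 at day 2 to 6.82 at day 5, by -1.85 and -1.11.

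Of 9 genes of the PERK branch or among ATF4 targets, 5 rose and 3 fell at day 2, none 2-fold. These are 55.6% and 33.3%, beside 42.8% and 37.4% of all genes. At day 5, 4 rose and 3 fell, or 44.4% and 33.3%, beside 29.7% and 38.1% of all genes. The 2 at least 2-fold higher at day 5, or 22.2% beside 4.44% of all genes, were Trib3 and Atf3. Trib3, a pseudokinase induced by ATF4 and CHOP, rose by 1.88 and 2.78. Atf3, a stress-induced transcription factor, rose by 1.57 and 2.44. Of 7 genes that process or accompany ATF6 and IRE1, 2 rose and 4 fell at day 2, or 28.6% and 57.1%. Creb3, an ATF6-like membrane-bound factor, rose by 1.21 and 1.37. Of 15 other degradation genes, 9 rose and 3 fell at day 2, or 60% and 20%. At day 5, 2 rose and 3 fell, or 13.3% and 20%. Ube2g2, a ubiquitin-conjugating enzyme of the pathway, had the largest rise, from 7.37 to 9.27 at day 2 and 9.36 at day 5 (1.90 and 2.12, then 2.00 and 2.86).

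Of 6 genes for ER stress and cell death, 3 rose and 3 fell at day 2, or 50% each, beside 42.8% and 37.4% of all genes. Casp12, an ER-associated caspase, fell from 5.73 ± 0.0734 (SD, n = 3) to 3.30 at day 2, a level under the filter, and rose to 4.69 at day 5, which was 1.39 and 1.93 above day 2. The signs of Casp12 were the same on both scales in both steps, but its lower level was not above the filter, so the sizes are uncertain.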

How the data were processed

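Per the labels, total RNA (RNeasy) was hybridised to 9 Affymetrix arrays, 3 per stage. The values deposited by the authors are log2 levels made with RMA, per the submitters' processing notes; RMA was run per replicate set, per the design text. The RMA version and genome build are not given in the sources used here. Of 35556 probe sets, 21789 name 1 gene, 1621 several and 12146 none in the platform annotation; the highest-mean probe set was kept per gene.

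From these, limma 3.58.1 (R 4.3.3) was fitted over all 9 arrays on the deposited values and after quantile normalization of the 9, with Benjamini-Hochberg adjustment over 16582 genes. The code was tested on simulated data. Members, gene lists and rules were chosen with earlier results of these data known. All members are named; outside them, the 3 largest 2-fold rises and falls per comparison among the other ER genes, and markers by list. Same-numbered replicates did not deviate together (correlations -0.0382 to 0.106 in 9 pairs, others -0.151 to 0.163), so no block was used. All 31 members matched RefSeq symbols. Protein features were not analysed here. Alternatives were another fold, filter, scale or probe set rule, trended and robust gene variances, a replicate block and leaving out each array. Their number, 3 per stage, limits the precision.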

Additional observations from a re-analysis of the deposited data

How the results depend on the processing

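With a 1.5-fold threshold in place of 2-fold, the members past it were 4 higher and 8 lower at day 2, 3 and 9 at day 5, and 3 and 1 from day 2 to day 5; all genes called became 4763, 4932 and 2166, and other ER genes 36, 31 and 12. On the common scale alone, 3 members were higher at day 5 and 4 from day 2 to day 5, and the median member difference was -0.37 at day 2, -0.25 at day 5 and 0.076 from day 2 to day 5, a reversal of the deposited -0.58. On the deposited scale alone, 17 members were lower at day 5 and 5 from day 2 to day 5, with 5576 and 2675 genes called and 52 and 22 other ER genes. With arrays centred on their median, 3 members were higher and 9 lower at day 5 and 1 lower from day 2 to day 5, with 4749 and 1521 genes called, 34 and 11 other ER genes, and medians of -0.46, -0.70 and -0.30. The cause of these shifts was not tested.

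Of the 3, 7 and 17 members with opposite signs on the scales in the 3 comparisons, 1, 6 and 10 had a limma adjusted p below 0.05 on both; their values on the common scale were: at day 2 Derl2 (0.088); at day 5 Dnajb9 (0.65), Atf6 (0.54), Sel1l (0.52), Syvn1 (0.79), Derl2 (0.33) and Edem3 (0.72); from day 2 to day 5 Xbp1 (0.38), Eif2ak3 (0.074), Sel1l (0.52), Syvn1 (0.27), Derl2 (0.24), Edem1 (0.22), Edem2 (0.12), Pdia4 (0.19), Creld2 (0.31) and Manf (0.12). With median-centred arrays, those of the called members that turned were Sel1l (0.033), Syvn1 (0.18) and Edem3 (0.14) at day 5 and Sel1l (0.12) from day 2 to day 5.

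Leaving out 1 array at a time gave 0 to 3 members higher at day 2, 1 at day 5 and 0 from day 2 to day 5, and 3, 4 to 5 and 0 lower. The fifth was Hsp90b1, in 6 of 9 such fits. Medians ran from -0.53 to -0.52, -1.07 to -1.03 and -0.58 to -0.56, all genes called from 2350 to 2412, 2755 to 2799 and 728 to 772, and other ER genes stayed at 16, 20 to 21 and 4. The fit with the replicate number as a block gave 2 members higher and 3 lower at day 2 and moved no count by over 1.5 times; the same held with no filter, a filter at the array median, trended and robust variances, the mean over probe sets, and, chosen after seeing the data, with no p-value.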
